A study of Homo sapiens with 18 samples.

Results

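The scavenger receptor genes described here are CD36, SCARB1, SCARB2, MSR1, MARCO, CD163, STAB1, OLR1 and MRC1, which are 9 of the 40184 gene IDs in the deposited table. They were picked by gene symbol, with their levels in untreated cells and their changes with the drug already in view, so those values are given as a description and no test is made on them. The data are RNA-seq values from 18 cultures of established lines of acute myeloid leukaemia. An internal tandem duplication of the receptor tyrosine kinase gene FLT3 (FLT3-ITD) is carried by Molm-14 and by MV4-11, and the N822K change of the receptor tyrosine kinase KIT by SKNO-1. SKNO-1 was also grown with hGM-CSF at 10 ng/mL, so line, genotype and growth factor cannot be told apart. Each line received the vehicle DMSO or 500 nM RMC-4550, an allosteric inhibitor of the phosphatase SHP2, for 24 h, with 3 replicate cultures in each of the 6 groups. Each genotype is thus represented by 1 or 2 lines, and the spread between replicates is a spread between cultures of 1 line.

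Scavenger receptors are membrane proteins that bind modified lipoproteins, lipids, microbes and dying cells and carry them into the cell. Monocytes and macrophages display many of them, and several are used as markers of macrophage states. CD36 binds oxidised LDL and thrombospondin and also takes up long-chain fatty acids, an activity studied in leukaemia cells. SHP2, encoded by PTPN11, relays signals from receptors such as FLT3 and KIT to RAS and the MAPK pathway.

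Levels are given in CPM, the reads of a gene per 1000000 reads of the scaled library. Read totals lay between 17434810 and 19959917 per library. The share of reads in 15 mitochondrial genes lay between 5.06% and 7.004% in 14 libraries and was above 10%, at up to 15.0%, in the other 4, which were Molm-14 RMC-4550 replicate 2, MV4-11 DMSO replicates 1 and 3, and MV4-11 RMC-4550 replicate 1. Log2 changes of the 9 genes and counts of the lists that rest on these 4 are given with and without them. Changes of single list genes are mostly given with all libraries only. All 18 libraries held the myeloid genes SPI1 (at least 211 CPM), CD33 (at least 34.5 CPM) and LYZ (at least 42 CPM). CSF3R (at least 188 CPM) and FLT3 (at least 321 CPM) were also present in all. Other markers of the same list differed between lines. MPO did not pass 4.40 CPM in Molm-14 or 2.44 in MV4-11, against at least 315 in SKNO-1. KIT did not pass 1.42 CPM in Molm-14 or 6.73 in MV4-11, against at least 31.4 in SKNO-1. The stem cell marker CD34 did not pass 0.226 CPM. Of the 9 receptor genes, 7 passed the filter on low values over all samples (at least 1 CPM in at least 3), as did 16289 genes in all. OLR1 and MRC1 did not. Within the lines, 5 of the 9 could be fitted in Molm-14, 4 in MV4-11 and 6 for SKNO-1.

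CD36, on chr7:80369575-80679277 (GRCh38, plus strand), was higher with RMC-4550 in all 3 lines. In Molm-14 it was at 31.2, 34 and 33.7 CPM with DMSO and at 98.2, 69.1 and 91.1 CPM with RMC-4550. For MV4-11 the levels were 21.6, 33.4 and 25.7 CPM with DMSO and 48.6, 62.3 and 56.3 CPM with RMC-4550. For SKNO-1 the levels were 21.1, 21.9 and 21.6 CPM with DMSO and 105, 94 and 98.5 CPM with RMC-4550. Every treated library lay above every DMSO library of its line. In Molm-14 and MV4-11 the libraries of high mitochondrial share were the lowest of their groups, and their part in the result was not tested. Each value rests on 402 to 2276 reads.

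The ratio of mean CD36 levels, RMC-4550 over DMSO, was 2.61 in Molm-14, 2.07 in MV4-11 and 4.61 for SKNO-1. The log2 change was 1.37 ± 0.15 (SE, n = 3 against 3) in Molm-14, 1.07 ± 0.15 in MV4-11 and 2.20 ± 0.15 for SKNO-1. This SE comes from the fit over all 18 samples and is the same in each line, so it is not the spread within a line. The log2 change stood at percentile 95.8 of the 14020 genes tested in Molm-14, 98.2 of 14739 in MV4-11 and 99.7 of 14690 in SKNO-1. Leaving out the 4 libraries of high mitochondrial share gave 1.52, 0.82 and 2.20 in that order. Within MV4-11, the difference was 0.82 among libraries under 10% mitochondrial reads (1 DMSO against 2 RMC-4550) and 1.04 among those above (2 against 1). In bulk cultures, a larger share of cells with the transcript and more transcript per cell cannot be told apart.

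With DMSO the mean CD36 level was highest in Molm-14 at 33 ± 1.53 CPM (SD, n = 3), then MV4-11 at 26.9 ± 6.01 and SKNO-1 at 21.5 ± 0.431. The MV4-11 libraries overlapped those of both other lines, and the libraries of Molm-14 and SKNO-1 did not overlap each other. A middle position is common for MV4-11: 52.9% of the 16289 genes had their MV4-11 mean between those of the other lines. With RMC-4550 the order was another. SKNO-1 had the highest mean at 99.3 ± 5.69 CPM, its libraries overlapped those of Molm-14 at 86.1 ± 15.2, and MV4-11 was below both at 55.8 ± 6.86.

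**Figure D1:**
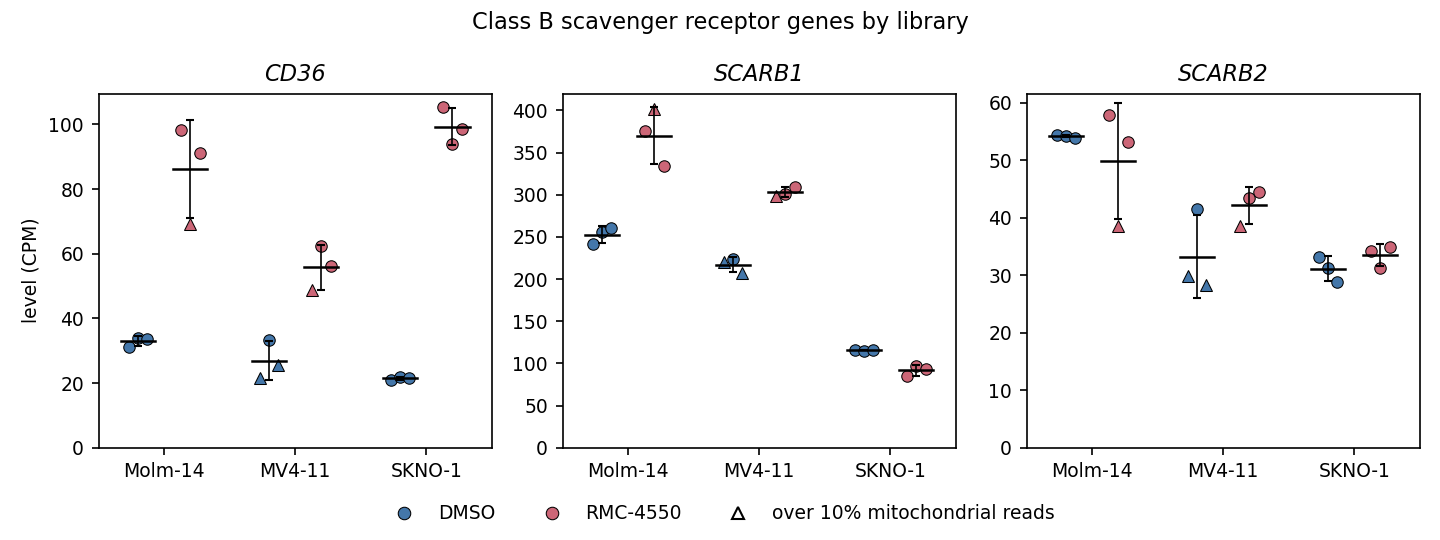
CPM of CD36, SCARB1 and SCARB2 in each of the 18 libraries, by line and treatment. Bars are the mean and SD of 3 libraries, and triangles are the 4 libraries with over 10% mitochondrial reads. CD36 is higher with RMC-4550 in every line, SCARB1 is higher in Molm-14 and MV4-11 and lower in SKNO-1, and SCARB2 overlaps between treatments.

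SCARB1 (chr12:124776856-124882668, minus strand), the other surface receptor of class B, encodes SR-BI, which takes cholesteryl esters from HDL. In Molm-14 it was at 241, 255 and 261 CPM with DMSO and at 375, 401 and 334 CPM with RMC-4550. In MV4-11 it was at 221, 224 and 207 CPM with DMSO and at 299, 301 and 309.7 CPM with RMC-4550. In SKNO-1 it was at 116, 115 and 116 CPM with DMSO and at 84.9, 96.9 and 93.7 CPM with RMC-4550. The treated libraries thus lay above all DMSO libraries in the FLT3-ITD lines and below all of them in SKNO-1. The log2 changes were 0.55 ± 0.08 (SE), 0.48 ± 0.08 and -0.34 ± 0.08. Leaving out the 4 libraries of high mitochondrial share gave 0.49 for Molm-14 and 0.45 for MV4-11. Per kilobase of its longest coding transcript, SCARB1 had the highest mean DMSO level of the 9 genes in every line, at 75.8 CPM per kb in Molm-14, 65.2 in MV4-11 and 34.8 for SKNO-1, against 13.9, 11.4 and 9.11 for CD36. In treated SKNO-1 cells CD36 was above it, at 42 against 27.6 CPM per kb.

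SCARB2 (chr4:76158733-76234536, minus strand) encodes LIMP-2, a protein of the lysosomal membrane that carries glucocerebrosidase to lysosomes. In Molm-14 it was at 54.4, 54.3 and 54 CPM with DMSO and at 57.9, 38.6 and 53.2 CPM with RMC-4550. For MV4-11 the levels were 30, 41.5 and 28.2 CPM with DMSO and 38.6, 43.4 and 44.5 CPM with RMC-4550. For SKNO-1 the levels were 33.3, 31.3 and 28.9 CPM with DMSO and 34.3, 31.4 and 34.9 CPM with RMC-4550. Treated and DMSO libraries overlapped in every line. The log2 changes were -0.14 ± 0.15 (SE), 0.36 ± 0.15 and 0.11 ± 0.15. In Molm-14 the lowest treated library was the one of high mitochondrial share, and in MV4-11 the lowest DMSO libraries were those of high share. Leaving out the 4 libraries gave 0.03 for Molm-14 and 0.08 for MV4-11.

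The sequence upstream of an annotated start is shown for 4 of these genes: CD36, STAB1 and CD163, which were all higher with RMC-4550 in Molm-14 (the values of STAB1 and CD163 follow), and SCARB2, which overlapped between treatments. Sequences are from RefSeq (GRCh38.p14), matched by symbol for 5 of the 9 genes: CD36, STAB1, SCARB2, CD163 and MARCO. CD36 had 6 starts, some with overlapping windows, and gene-level values cannot say which start was used. Each stretch is a part of the 250 bases before the start that lies in no GENCODE 29 exon, read 5′ to 3′ on the strand of the gene. For CD36 it belongs to the first start, chr7:80601957-80602149 (plus strand). For STAB1 it is chr3:52495088-52495337 (plus), for CD163 chr12:7503894-7504027 (minus) and for SCARB2 chr4:76213919-76214039 (minus). Capitals mark matches, on either strand, to the motifs described in the next paragraph.
CD36: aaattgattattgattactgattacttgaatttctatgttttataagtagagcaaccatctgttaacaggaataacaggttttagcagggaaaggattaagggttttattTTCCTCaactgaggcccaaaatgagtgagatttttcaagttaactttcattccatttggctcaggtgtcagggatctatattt
STAB1: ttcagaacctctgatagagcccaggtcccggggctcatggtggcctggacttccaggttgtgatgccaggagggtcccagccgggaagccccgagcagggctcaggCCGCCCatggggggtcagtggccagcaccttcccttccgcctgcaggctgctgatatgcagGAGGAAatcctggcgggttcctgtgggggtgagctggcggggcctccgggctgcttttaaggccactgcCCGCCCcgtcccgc
CD163: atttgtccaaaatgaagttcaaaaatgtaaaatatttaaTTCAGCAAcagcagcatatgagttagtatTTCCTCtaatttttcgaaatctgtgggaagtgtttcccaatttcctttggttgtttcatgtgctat
SCARB2: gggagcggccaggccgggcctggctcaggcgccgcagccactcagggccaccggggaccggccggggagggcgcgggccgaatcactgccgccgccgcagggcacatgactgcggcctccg

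Letters were searched on both strands in the 250 bases before the start in 35116 RefSeq windows. The core bound by PU.1, the myeloid factor encoded by SPI1, was searched as GAGGAA and is held by 23.6% of all windows. It occurs in 3 of the 6 CD36 windows and in the STAB1 and CD163 windows, as TTCCTC (the other strand) in the CD36 and CD163 stretches printed and as GAGGAA in STAB1. The C/EBP letters TTGCNNAA (9.05% of windows) occur in the CD163 window. The SP1 letters GGGCGG (42.6%) occur in those of STAB1 and SCARB2, with the SCARB2 matches outside the stretch printed. RUNX letters TGTGGT (11.0%) occur in 1 CD36 window and AP-1 letters TGANTCA (6.57%) in another. The nuclear receptor half-site AGGTCA (12.1%) was in none of the windows of the 5 genes. No match overlaps another in the stretches printed, and the MARCO window held none of the 6 motifs. MARCO is not printed, although its treated libraries in Molm-14 also lay above the DMSO libraries, by a narrow gap. The genes shown were picked with their changes known, so a match beside a rise is no result about a motif. GC content was 31.2% to 43.2% over the CD36 windows, 33.6% for CD163, 53.2% for MARCO, 67.6% for STAB1 and 80.8% for SCARB2, against a median of 58.0% over all windows. A match is a run of letters, and no binding was measured.

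The remaining 6 genes were low throughout. MSR1, on chromosome 8, and MARCO (chr2:118942166-118994660, plus strand) encode class A receptors, trimers with collagen-like stalks that bind modified LDL and bacteria. In SKNO-1, MSR1 was at 0.969, 0.643 and 0.848 CPM with DMSO and at 1.29, 1.72 and 2.02 CPM with RMC-4550. In MV4-11 it was at 0.377, 0.665 and 0.299 CPM with DMSO and at 0.634, 1.11 and 1.12 CPM with RMC-4550. In Molm-14 no library had more than 4 reads of MSR1. The treated SKNO-1 libraries lay above all DMSO libraries, with a log2 change of 1.01 ± 0.77 (SE), whereas those of MV4-11 overlapped. The SE is shared by all 6 groups in the fit, in which single reads move the log2 values of MSR1 in Molm-14.

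MARCO had a higher mean level with RMC-4550 in all 3 lines, at 6 to 38 reads per library. In SKNO-1 it was at 0.554, 0.597 and 0.565 CPM with DMSO and at 1.62, 1.76 and 1.38 CPM with RMC-4550. For MV4-11 the levels were 0.70, 0.614 and 0.658 CPM with DMSO and 1.32, 0.911 and 1.07 CPM with RMC-4550. In Molm-14 it was at 0.50, 0.404 and 0.334 CPM with DMSO and at 0.711, 0.512 and 0.566 CPM with RMC-4550. No treated library overlapped a DMSO library of its line in CPM, but the gap in Molm-14 was narrow. There the highest DMSO library had 9 reads (0.50 CPM), and the lowest treated library, of high mitochondrial share, 8 reads (0.512 CPM). The ratio of mean levels was 2.78 in SKNO-1, 1.67 in MV4-11 and 1.45 in Molm-14. MARCO could be fitted only in SKNO-1, where the log2 change was 1.43 ± 0.23 (SE).

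CD163 (chr12:7470813-7503893, minus strand) encodes the receptor that clears complexes of haemoglobin and haptoglobin. Its level was highest in Molm-14, at 0.889, 0.98 and 0.446 CPM with DMSO and at 2.24, 1.15 and 2.04 CPM with RMC-4550. There the treated libraries lay above the DMSO libraries, and the log2 change was 1.22 ± 0.67 (SE), or 1.51 without the library of high mitochondrial share. In MV4-11 no library had more than 6 reads of CD163. In SKNO-1 it had 0 reads in the 3 DMSO libraries and at most 2 with RMC-4550. A count of 0 allows up to 3 reads, which is 0.138 to 0.192 CPM depending on the library. CD163 and STAB1 in Molm-14, and MSR1 and MARCO in SKNO-1, passed the filter only through the treated group, so a high level there is what brought them into the fit. CD163 exons share 38 bases with those of its relative CD163L1, so its reads are uncertain.

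STAB1 (chr3:52495338-52524495, plus strand) encodes stabilin-1, a receptor for modified LDL and the matrix protein SPARC. In Molm-14 it was at 0.667, 0.404 and 1.0 CPM with DMSO and at 2.24, 2.82 and 1.7 CPM with RMC-4550. In MV4-11 it was at 1.34, 1.07 and 1.2 CPM with DMSO and at 0.792, 1.01 and 0.964 CPM with RMC-4550. For SKNO-1 the levels were 0.877, 1.1 and 0.659 CPM with DMSO and 0.601, 1.21 and 1.43 CPM with RMC-4550. The treated libraries were above the DMSO libraries in Molm-14, below them in MV4-11 and overlapping in SKNO-1. The log2 changes were 1.72 ± 0.35 (SE), -0.38 ± 0.35 and 0.23 ± 0.35. Leaving out the libraries of high mitochondrial share gave 1.55 for Molm-14 and -0.12 for MV4-11, and the SKNO-1 value ran from -0.01 to 0.59 when single libraries were left out. STAB1 entered the fit only through the treated group in Molm-14 (1 DMSO library reached 1 CPM) and only through the DMSO group in MV4-11, the groups in which it is high. STAB1 exons overlap NT5DC2 on the opposite strand over 111 bases, and whether counting used strand is not given in the sources used here.

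OLR1 (chr12:10158301-10172138, minus strand), which encodes the oxidised LDL receptor LOX-1, had at most 11 reads in any library. MRC1 (chr10:17809344-17911170, plus strand), which encodes the mannose receptor CD206 of alternatively activated macrophages, also had at most 11. Both had their highest level in SKNO-1, OLR1 at 0.506 CPM with RMC-4550 and MRC1 at 0.518 CPM with DMSO. MRC1 had 0 reads in all DMSO libraries of Molm-14 and in all treated libraries of MV4-11. OLR1 in MV4-11 was at 8 reads in all with DMSO and at 4 with RMC-4550.

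**Figure D2:**
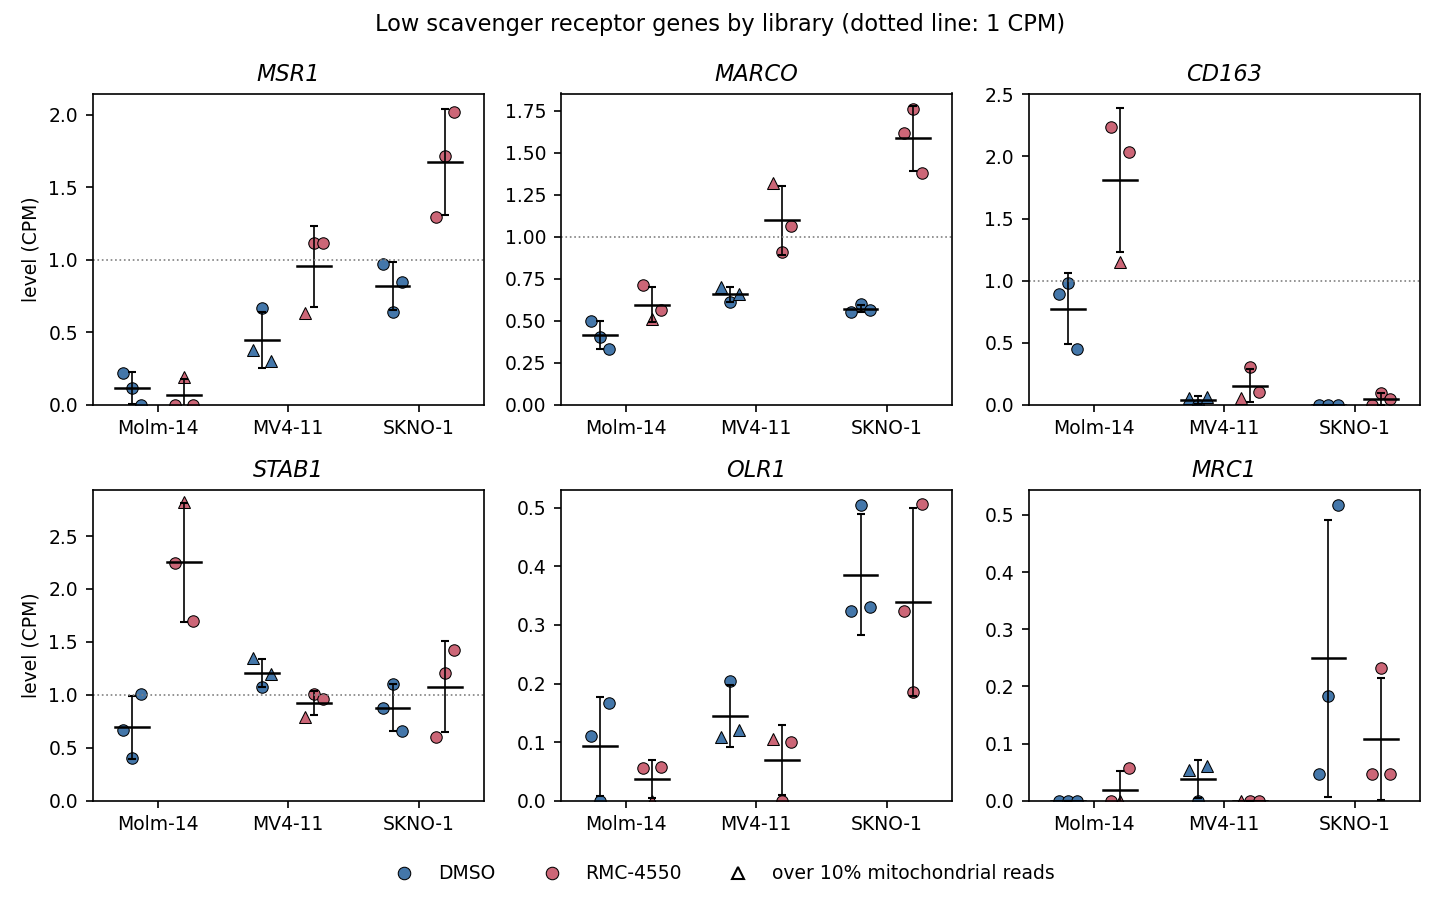
CPM of the 6 low scavenger receptor genes in each library, by line and treatment, with mean and SD of 3 libraries and triangles for the 4 libraries with over 10% mitochondrial reads. Scales differ between panels. MARCO has a higher mean with RMC-4550 in every line, with a narrow gap between libraries in Molm-14. CD163 and STAB1 are highest in treated Molm-14 cells.

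The call used for all genes (limma, adjusted p under 0.05) took in 21.5% of genes tested in Molm-14 as higher and 25.1% as lower (46.6% in all). The shares were 5.85% and 8.03% in MV4-11 (13.9%), and 10.8% and 16.2% in SKNO-1 (27.0%). No call is given for the 9 genes, since they were chosen with these changes known. Treated libraries lay wholly above or wholly below the DMSO libraries for 26.9% and 33.0% of genes tested in Molm-14 (60.0%), 11.1% and 13.5% in MV4-11 (24.6%), and 26.6% and 35.4% in SKNO-1 (62.0%). Among 12811 genes tested in all 3 lines, 398 (3.11%) were called higher in each. The share of all calls that were higher depends on the scaling: it was 46.1% with the deposited scaling and 50.9% with median-ratio scaling in Molm-14, 42.2% and 51.9% in MV4-11, and 40.0% and 50.6% in SKNO-1. The CD36 change in SKNO-1 was 2.20 and 2.27 under them.

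**Figure D3:**
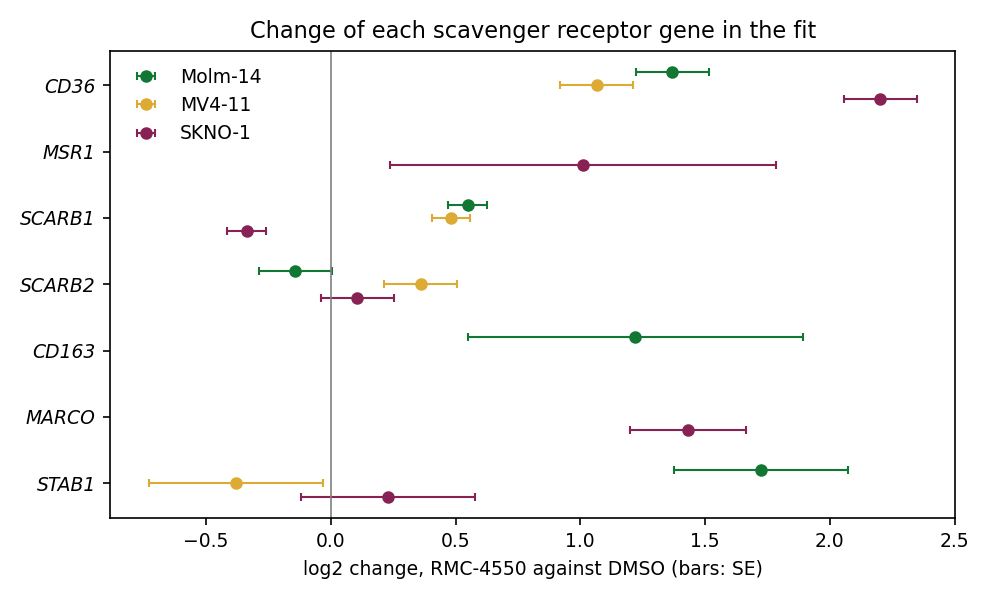
Log2 change with RMC-4550 against DMSO for each scavenger receptor gene in the fit, by line, with bars for 1 SE from the fit over 18 samples. CD36 is above 0 in all 3 lines with its largest change in SKNO-1, SCARB1 is on both sides of 0, and the bars of MSR1 and CD163 are the widest.

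For 6 lists of related genes, counts of calls are set beside the shares over all genes, and the difference between a list and all genes was not tested. The lists were chosen with earlier results known, and a share near that of all genes is no result about the list. Other scavenger receptors made a list of 17 genes, 10 of them tested in each line. In Molm-14, 4 rose and 2 fell (all genes 21.5% and 25.1%), with a median log2 change of 0.61 against -0.06 over all genes tested. In MV4-11, 2 rose and none was called lower by limma (all genes 5.85% and 8.03%; median 0.07 against -0.01; 2 lower at an unadjusted p under 0.05). In SKNO-1, 2 rose and none was called lower by limma (all genes 10.8% and 16.2%; median 0.26 against -0.05; 1 lower at an unadjusted p). Voom weights also called none lower in these 2 lines. SCARF1, a class F receptor for modified LDL, rose in all 3 lines. In Molm-14 it went from 4.86 ± 0.51 to 14.9 ± 1.9 CPM (SD, n = 3; log2 change 1.61 ± 0.14 (SE), limma adjusted p = 3.03e-07), and the log2 change was 0.52 for MV4-11 and 0.82 for SKNO-1. SCARF2 rose by 0.77 in Molm-14. LRP1, an endocytic receptor for many ligands, rose by 0.55 in Molm-14 and 0.52 in MV4-11. CXCL16, a membrane-bound chemokine that binds oxidised LDL, rose from 4.5 ± 0.25 to 8.19 ± 0.566 CPM in SKNO-1. The remaining gene called higher in Molm-14 was SSC5D, from 0.618 ± 0.0858 to 1.71 ± 0.407 CPM, which passed the filter only through the treated group. The genes that fell in Molm-14 were relatives of the mannose receptor. LY75, a receptor of dendritic cells, went from 22.6 ± 1.42 to 11.7 ± 0.497 CPM (limma adjusted p = 4.79e-07) and MRC2, a collagen receptor, from 142 ± 7.75 to 100.4 ± 7.0 CPM.

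Some of these calls were lost when a single library was left out. Here and for the lists that follow, the libraries without which a call was lost are named, and the range in parentheses covers every alternative that ended the call. Some of the calls were also lost with no filter on low values, a separate fit per line or the replicate number as a block. The MV4-11 call of SCARF1 was lost without DMSO replicate 2 or 3 or RMC-4550 replicate 1 or 2 (0.41 to 0.53), and that of LRP1 without DMSO replicate 1 or 3 or RMC-4550 replicate 2 or 3 (0.42 to 0.52). SCARF2 lost its call in Molm-14 without DMSO replicate 1 (0.62). With the 4 libraries of high mitochondrial share left out, the list's counts higher and lower were 6 and 2, 2 and 0, and 3 and 1. The order is Molm-14, MV4-11, SKNO-1. Calls over all genes rose as well in that setting. Higher and lower, they went from 3009 and 3525 to 3877 and 4371 in Molm-14. In MV4-11 they went from 862 and 1183 to 1299 and 2661, and in SKNO-1 from 1588 and 2381 to 3107 and 4710.

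Partners of CD36 in signalling include Src family kinases, the kinase SYK, Toll-like receptors, and tetraspanins and integrins beside it in the membrane. Of 14 listed, 4 rose and 6 fell among 13 tested in Molm-14 (median log2 change -0.26; all genes 21.5% higher and 25.1% lower), 1 rose and 2 fell among 14 in MV4-11 (median -0.07; all genes 5.85% higher and 8.03% lower), and 3 rose and 3 fell among 13 in SKNO-1 (median -0.04; all genes 10.8% higher and 16.2% lower). The gene of the exchange factor VAV1 rose in all 3 lines, from 120.2 ± 4.64 to 142 ± 9.66 CPM in Molm-14, from 167 ± 11.2 to 202 ± 3.87 CPM in MV4-11 and from 212 ± 10.1 to 255 ± 3.34 CPM for SKNO-1. The focal adhesion kinase gene PTK2 fell in all 3, from 76.5 ± 3.23 to 39.9 ± 4.12 CPM for Molm-14 (log2 change -0.95 ± 0.12 (SE), limma adjusted p = 1.1e-05), with log2 changes of -0.37 for MV4-11 and -0.65 for SKNO-1. TLR2 also fell in all 3, with log2 changes of -1.33 for Molm-14, -0.55 for MV4-11 and -0.29 for SKNO-1. Its partner TLR6 rose by 0.35 in Molm-14 and 0.59 for SKNO-1. Of the Src kinases, YES1 fell in Molm-14 (by 0.89) and SKNO-1 (by 0.60), FYN fell in Molm-14 (by 0.74), and LYN rose in SKNO-1 (by 0.44). The rises counted in Molm-14 include CD9 and FCER1G, which passed the filter only through the treated group.

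In MV4-11 the VAV1 call was lost without DMSO replicate 1 or 3 or RMC-4550 replicate 3 and also with the 4 libraries of high mitochondrial share left out (0.19 to 0.28). PTK2 lost it there without any single library but DMSO replicate 1, and also with median-ratio scaling or the replicate number as a block (-0.39 to -0.24). In SKNO-1 the calls of LYN (0.42 to 0.46) and TLR2 (-0.33 to -0.23) were lost without any 1 of the 6 libraries. Both were also lost there with the replicate number as a block, and that of TLR2 with median-ratio scaling. YES1 lost its call without DMSO replicate 1 or RMC-4550 replicate 1 or 3 (-0.58 to -0.53), and VAV1 without DMSO replicate 2 (0.23 to 0.27). In Molm-14 TLR6 lost it without any single library but RMC-4550 replicate 2 (0.27 to 0.36), and VAV1 without DMSO replicate 2 or RMC-4550 replicate 2 (0.18 to 0.24). The counts of partners higher and lower with the 4 libraries left out were 4 and 6, 0 and 5, and 5 and 6. Calls over all genes also rose in that setting, as given above.

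Of 29 listed genes that transport, activate, oxidise or store fatty acids, 5 rose and 11 fell among 23 tested in Molm-14 (median log2 change -0.30; all genes 21.5% higher and 25.1% lower), 1 rose and 1 fell among 23 in MV4-11 (median 0.00; all genes 5.85% higher and 8.03% lower), and 3 rose and 6 fell among 25 in SKNO-1 (median -0.13; all genes 10.8% higher and 16.2% lower). FABP5, a cytosolic carrier of fatty acids, fell in all 3 lines, from 23 ± 0.255 to 11.2 ± 4.56 CPM in Molm-14, from 23.1 ± 4.05 to 13.9 ± 3.48 CPM in MV4-11 and from 18.2 ± 1.36 to 7.52 ± 0.685 CPM for SKNO-1. The transporter gene SLC27A1 rose in all 3, with log2 changes of 0.63 for Molm-14, 0.31 for MV4-11 and 0.31 for SKNO-1. Its relative SLC27A3 rose by 0.83 in Molm-14 and 0.82 for SKNO-1. SLC27A4 fell by 0.76 in Molm-14 and 0.82 in SKNO-1, and SLC27A2 by 1.55 and 1.68 in the same lines. In SKNO-1 SLC27A2 and LPL, and in Molm-14 SLC27A5, are counted among the falls although they passed the filter only through the DMSO group. Acyl-CoA synthetases trap fatty acids as CoA esters. ACSL3 fell by 1.25 in Molm-14 and 0.54 in SKNO-1, ACSL1 by 1.02 and 0.73 in the same lines, and ACSL4 by 1.22 in Molm-14. ACSL5 fell from 49.4 ± 0.871 to 29.9 ± 1.49 CPM in Molm-14 and rose from 18.9 ± 0.769 to 34 ± 0.485 CPM in SKNO-1 (limma adjusted p = 9.2e-07 and 3.09e-07). PNPLA2, the lipase that starts the breakdown of stored triglyceride, rose from 99.2 ± 3.51 to 218 ± 40.3 CPM in Molm-14.

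The MV4-11 call of FABP5 was lost without DMSO replicate 1 or 3 or RMC-4550 replicate 2 or 3 (-0.75 to -0.58), and that of SLC27A1 without DMSO replicate 2 or RMC-4550 replicate 1 or 3 (0.26 to 0.31). Median-ratio scaling or the replicate number as a block also ended the FABP5 call there. In SKNO-1 SLC27A1 lost its call without DMSO replicate 1 or RMC-4550 replicate 2 (0.21 to 0.31). The counts of fatty acid genes higher and lower with the 4 libraries left out were 7 and 11, 1 and 5, and 5 and 10. Calls over all genes also rose in that setting, as given above.

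Lipoprotein uptake and cholesterol handling were followed in 16 genes. Of these, 3 rose and 5 fell among 13 tested in Molm-14 (median log2 change -0.17; all genes 21.5% higher and 25.1% lower), 2 rose and none was called lower by limma among 14 in MV4-11 (median 0.18; all genes 5.85% higher and 8.03% lower), and 2 rose and 1 fell among 14 in SKNO-1 (median -0.02; all genes 10.8% higher and 16.2% lower). In MV4-11, 1 was lower at an unadjusted p under 0.05, and voom weights called 1 lower. ABCA1, which exports cholesterol to apolipoproteins, rose by 0.65 in MV4-11 and 0.47 for SKNO-1. MYLIP, a ubiquitin ligase gene induced by oxysterol receptors, rose by 0.37 and 0.40 in the same lines. In Molm-14 the lysosomal sterol carrier gene NPC2 rose by 0.35. SOAT1, which esterifies cholesterol, fell there by 0.86 and NCEH1, which hydrolyses those esters, by 0.83. PLTP, counted among the falls in Molm-14, passed the filter only through the DMSO group.

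The NCEH1 call was lost without any DMSO library of Molm-14 or without RMC-4550 replicate 2 (-0.87 to -0.49). ABCA1 lost its call in MV4-11 without DMSO replicate 3 or RMC-4550 replicate 2 or 3 (0.50 to 0.65), and in SKNO-1 without any 1 of the 6 libraries (0.39 to 0.51). MYLIP lost it in MV4-11 without DMSO replicate 1 or 3 or RMC-4550 replicate 2 or 3 (0.27 to 0.37), and in SKNO-1 without RMC-4550 replicate 1 (0.37). The counts of cholesterol genes higher and lower with the 4 libraries left out were 4 and 5, 3 and 2, and 4 and 3. Calls over all genes also rose in that setting, as given above.

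Transcription factors known to act on scavenger receptor genes made a list of 17, of which 13 were tested in each line. PPARG, an activator of CD36 in macrophages, was not among them, with a mean of at most 0.163 CPM in any group. In Molm-14, 3 of 13 rose (all genes 21.5%) and none was called lower by limma (all genes 25.1%), also at an unadjusted p and with voom weights. These were STAT6, which acts downstream of interleukin 4 (from 428 ± 8.49 to 655 ± 119 CPM, limma adjusted p = 0.000874), the oxysterol receptor gene NR1H3 (log2 change 0.56) and SPI1 (0.48). In MV4-11 limma called none in either direction (all genes 13.9%). At an unadjusted p under 0.05, 1 was higher and 1 lower there, and voom weights also called none. In SKNO-1 KLF4, a factor of monocyte differentiation, went from 21.1 ± 0.652 to 31.6 ± 2.23 CPM, and was the 1 gene called higher (all genes 10.8%). None was called lower there by limma (all genes 16.2%), also at an unadjusted p and with voom weights. The median log2 changes were 0.29, 0.07 and 0.09, in the same order of lines. SPI1 lost its call in Molm-14 without any DMSO library or without RMC-4550 replicate 2 (0.26 to 0.50), and KLF4 in SKNO-1 without DMSO replicate 1 or RMC-4550 replicate 2 (0.52 to 0.55). The counts of factors higher and lower with the 4 libraries left out were 8 and 2, 1 and 1, and 4 and 2. Calls over all genes also rose in that setting, as given above.

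Of 18 listed markers of monocytes and macrophages, 6 rose and 2 fell among 9 tested in Molm-14 (median log2 change 1.03; all genes 21.5% higher and 25.1% lower), 6 rose and none was called lower by limma among 10 in MV4-11 (median 0.78; all genes 5.85% higher and 8.03% lower), and 7 rose and 1 fell among 13 in SKNO-1 (median 0.66; all genes 10.8% higher and 16.2% lower). In MV4-11, 1 was lower at an unadjusted p under 0.05 and none with voom weights. CSF1R, SIGLEC1, GPNMB and CD86 were called higher in every line. CSF1R, the receptor of the macrophage growth factor M-CSF, went from 12.6 ± 2.25 to 70.2 ± 13 CPM for Molm-14 (log2 change 2.47 ± 0.17 (SE), limma adjusted p = 3.26e-08), from 56.3 ± 11.5 to 129 ± 23.5 CPM in MV4-11 and from 132 ± 4.38 to 277 ± 16.8 CPM for SKNO-1. SIGLEC1, a sialic acid receptor of macrophages also called CD169, went from 0.344 ± 0.168 to 12.5 ± 1.91 CPM in MV4-11 and from 1.11 ± 0.107 to 12.7 ± 1.98 CPM for SKNO-1, and had 0 reads with DMSO in Molm-14 against a mean of 1.96 CPM with RMC-4550. That is at least 11.6-fold higher against a floor of 3 reads per library, and with SIGLEC1 at this bound the list median stays at 1.03. SIGLEC1 in Molm-14 and MV4-11, and C1QA and C1QC in SKNO-1, are counted among the rises although they passed the filter only through the treated group. The co-stimulatory gene CD86 had log2 changes of 1.70 for Molm-14, 1.32 for MV4-11 and 1.30 for SKNO-1. Those of GPNMB, a glycoprotein of macrophages, were 1.84, 1.31 and 0.66. The Fc receptor gene FCGR1A fell by 0.91 in Molm-14 and by 0.42 in SKNO-1, where the call was lost without any 1 of the 6 libraries (-0.45 to -0.36). Median-ratio scaling or the replicate number as a block also ended that SKNO-1 call. The monocyte co-receptor gene CD14 did not pass 0.512 CPM in any library. The counts of markers higher and lower with the 4 libraries left out were 6 and 2, 7 and 0, and 9 and 1. Calls over all genes also rose in that setting, as given above.

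**Figure D4:**
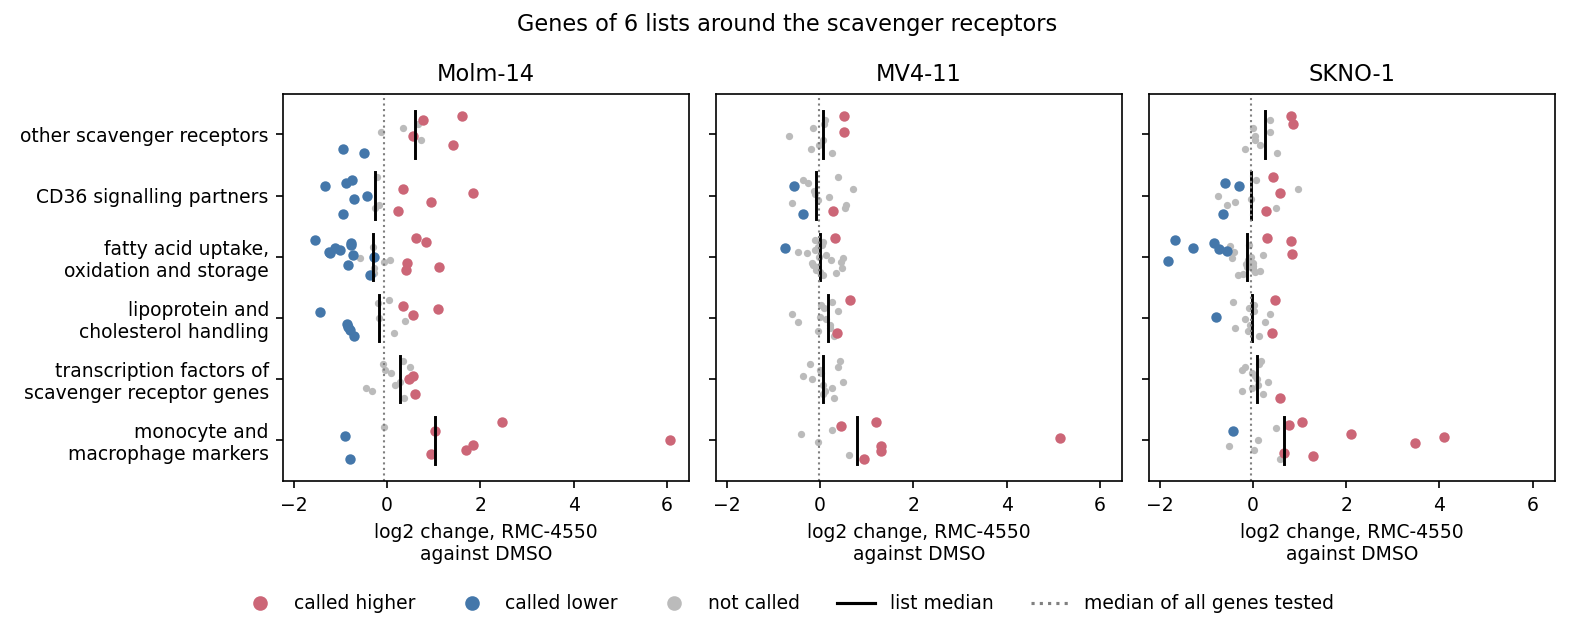
Log2 change with RMC-4550 against DMSO of every tested gene in 6 lists around the scavenger receptors, 1 panel per line, coloured by the limma call. Black bars are list medians and the dotted line is the median of all genes tested. Monocyte and macrophage markers have most of their calls above 0 in each line, and fatty acid genes have most of their calls below 0 in Molm-14.

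CD36 is also found on platelets, erythroid precursors, endothelium, fat and liver cells, so markers of these were measured. Of 5 megakaryocyte and platelet markers, PF4 and PPBP did not pass 0.0925 CPM in any library. ITGA2B, the platelet integrin chain, was at 0.39 to 0.778 CPM with DMSO and 0.929 to 1.19 with RMC-4550 in Molm-14, 13.8 to 19.6 and 18.1 to 18.8 in MV4-11, and 16.7 to 18 and 19.7 to 26.6 in SKNO-1. The summed list was at 4.33 to 6.92 CPM with DMSO and 3.46 to 6.45 with RMC-4550 in Molm-14, 18.9 to 23.5 and 21.2 to 23.4 in MV4-11, and 23.2 to 23.8 and 25.5 to 32.1 in SKNO-1. In SKNO-1 the sum was higher with RMC-4550 without overlap, as were CD36 and 26.6% of genes tested there. The part of these markers in the CD36 result was not tested. Of 5 erythroid markers, HBB did not pass 1.22 CPM and EPOR, the erythropoietin receptor gene, was at 21.1 to 42.4 CPM. Their sum was at 25.7 to 27.2 CPM with DMSO and 21.5 to 27 with RMC-4550 in Molm-14, 38.8 to 44.2 and 29.2 to 39.1 in MV4-11, and 34.7 to 39.3 and 26.1 to 33.4 in SKNO-1. The erythroid sum in SKNO-1 was lower with RMC-4550 without overlap, as 35.4% of genes tested there were. Of 4 endothelial markers, CDH5, KDR and TEK did not pass 0.232 CPM and VWF reached 2.62 CPM. The adipocyte markers ADIPOQ and LEP did not pass 0.0557 CPM, and PLIN1 reached 4.67 CPM. Of the hepatocyte markers, ALB reached 0.739 and APOA1 1.29 CPM.

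The genes whose levels were most like those of CD36 were ranked by Pearson correlation of log2 values over the 18 samples, among 11028 genes with a mean of at least 5 CPM. The samples share lines and treatments, so the coefficients are descriptions. PRCC had the highest (0.95), followed by RNF125 (0.95), BLVRB (0.94), TBXAS1 (0.93) and PTAFR (0.93). After the mean of each line was subtracted, the order was NRP1 (0.99), NFE2 (0.99), GSN (0.97), FLVCR2 (0.97) and PTAFR (0.97). PTAFR, the receptor for platelet-activating factor, was on both lists. In Molm-14 it was at 7.22, 6.98 and 6.63 CPM with DMSO and at 14.3, 14.2 and 15.5 CPM with RMC-4550. For MV4-11 the levels were 4.41, 5.78 and 5.33 CPM with DMSO and 12.1, 14.8 and 13.8 CPM with RMC-4550. In SKNO-1 it was at 6.37, 6.93 and 7.82 CPM with DMSO and at 24.7, 25.4 and 25.5 CPM with RMC-4550. NRP1, a co-receptor for semaphorins and VEGF, went from a mean of 21 to 36.4 CPM in Molm-14, 8.67 to 13.9 CPM in MV4-11 and 10.7 to 30.1 CPM for SKNO-1. The class B relatives were far from these ranks: SCARB1 had a coefficient of 0.08 and SCARB2 of 0.31, or 0.21 and 0.35 after the line means were subtracted.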

How the data were processed

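Per the labels' protocols, RNA of the 18 cultures was sequenced on a nanoball platform. The submitters' processing notes name FastQC, STAR, limma and the build GRCh38. The counter, annotation, strand setting and filters are not given in the sources used here. The authors deposited log2 values per Ensembl gene ID. From the values, each is the log2 of reads plus 0.5, scaled to CPM (scaling factors 0.89 to 1.113), and undoing this gave whole reads, within 0.1 read, for 100% of values under 1000 reads. CPM was computed from those reads. Symbols were matched for 40069 of the 40184 IDs.

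Changes were fitted with limma 3.58.1 in R 4.3.3 (two-sided, variance trend), using the log2 values of all 18 samples and 1 coefficient per group. Genes needed 1 CPM in 3 samples overall and within the line. Benjamini-Hochberg adjustment ran over all genes tested in a contrast, and calls needed an adjusted p under 0.05. On simulated data for the Molm-14 comparison over 16289 genes, 84 of 100 genes changed 2-fold and 97 of 100 changed 4-fold were called, with 8 unchanged genes among 189 calls. The simulated reads had the same dispersion in all genes and libraries and no libraries of high mitochondrial share. The share of unchanged genes among the calls may therefore differ in the real data. The sample titles call the cultures biological replicates. The p-values measure only the spread between these cultures of established lines, part of which may be technical. Floors cover counting error only.

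The 9 genes and all lists were chosen with earlier results of these data known. The text names all 9 genes, up to 3 genes called higher and 3 called lower per list and line by size of change (mean of at least 5 CPM in the line), genes called in all lines, marker genes, and the 5 genes most like CD36 by each measure. Values of a named gene in other lines, and SSC5D, CD9, FCER1G, SLC27A5, LPL, PLTP, C1QA and C1QC, were added after their values were seen. Some genes counted in the lists are not reported here by name. Of 138 listed genes and markers, 136 matched. Alternatives were log2(CPM + 1), no filter, a mean of 5 CPM, median-ratio scaling, a fit per line, a replicate block, voom weights, the mitochondrial share as a covariate, and leaving out libraries. Positions are from GENCODE 29. Plots used matplotlib 3.10.9.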

Additional observations from a re-analysis of the deposited data

Results flagged for a closer look

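For SCARB1, all treated libraries lay above the DMSO libraries in Molm-14 (log2 change 0.55) and MV4-11 (0.48) and below them in SKNO-1 (-0.34), and the difference was not tested. For STAB1 the treated libraries lay above the DMSO libraries in Molm-14 (1.72) and below them in MV4-11 (-0.38 ± 0.35 (SE)), also not tested. The MV4-11 gap was narrow, at 1.07 CPM with DMSO against 1.01 with RMC-4550 for the nearest libraries. Without the 4 libraries of high mitochondrial share the change there was -0.12. STAB1 passed the filter on low values only through the group where it is high in each of these lines. ACSL5 was lower in Molm-14 (-0.72) and higher in SKNO-1 (0.84). Its treated libraries in MV4-11 also lay above the DMSO libraries (0.12), a change that limma did not call. NR1H3 was higher in Molm-14 (0.56) and its treated libraries in MV4-11 lay below the DMSO libraries (-0.36), a change that limma did not call.

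Differences between lines were tested in the limma fit for the 37 list genes named, which had been picked for the size of their change in a line. Such a choice tilts the test toward a difference. The share of all genes called in these contrasts is not given here, so the counts below are no result about the genes as a set. SIGLEC1 was left out because its DMSO group in Molm-14 is at 0 reads, which gives a bound and no difference. The change in SKNO-1 differed from the mean change of the FLT3-ITD lines for 5 genes (limma adjusted p from 7.24e-06 to 0.0202). On the log2 scale the change was higher in SKNO-1 for ACSL5 (1.15), TLR2 (0.64), LY75 (0.63) and FYN (0.61), and lower for GPNMB (-0.91). Without the 4 libraries of high mitochondrial share all 5 were still called.

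The change in Molm-14 differed from that in MV4-11 for 16 genes (limma adjusted p from 6.74e-05 to 0.0457). It was higher in Molm-14 for CSF1R (1.28), PNPLA2 (1.17), SCARF1 (1.09), NR1H3 (0.92), SLC27A3 (0.77), GPNMB (0.53) and STAT6 (0.53). It was lower for SLC27A2 (-1.45), SOAT1 (-1.09), ACSL4 (-0.95), ACSL1 (-0.92), LY75 (-0.92), ACSL5 (-0.84), TLR2 (-0.78), ACSL3 (-0.77) and PTK2 (-0.57). Without the 4 libraries 12 of the 16 were still called. The calls lost were those of PTK2 (-0.25 without the 4), SLC27A3 (0.42 without the 4), SLC27A2 (-0.81 without the 4) and ACSL3 (-0.31 without the 4). Differences that stayed called but shrank by over 1.5 times were those of ACSL4 (-0.50), SOAT1 (-0.37) and STAT6 (0.26).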

How the results depend on the processing

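The CD36 change kept its direction under all alternatives run, and moved by more than the spread between replicates once, to 2.27 in SKNO-1 with median-ratio scaling. With single libraries left out it ran from 1.27 to 1.52 in Molm-14, 0.92 to 1.23 in MV4-11 and 2.16 to 2.24 for SKNO-1. Counts of calls depended on the fit. The genes higher, genes lower and list genes called in MV4-11 numbered 862, 1183 and 15. A separate fit per line gave 328, 346 and 5, the mitochondrial share as a covariate 1788, 3266 and 28, and leaving out the 4 libraries of high share 1299, 2661 and 27. No filter on low values gave 9 list genes. The same numbers for SKNO-1 were 1588, 2381 and 29, against 3577, 4878 and 57, 2938, 4333 and 48 and 3107, 4710 and 53. The cause was not tested. Without single libraries, Molm-14 (3009, 3525 and 51 with all) gave 2562 to 2993 higher, 2840 to 3827 lower and 40 to 51 list genes, MV4-11 gave 487 to 1420, 727 to 1604 and 7 to 27, and SKNO-1 gave 1096 to 1241, 1794 to 1973 and 20 to 23. In MV4-11 the genes higher and list genes were 1420 and 27 without DMSO replicate 2, 549 and 7 without DMSO replicate 3, 556 and 8 without RMC-4550 replicate 2, and 487 and 7 without RMC-4550 replicate 3. Among values of the named list genes, 24 of 390 in Molm-14, 51 of 179 in MV4-11 and 45 of 314 in SKNO-1 lost their call.

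Deviations of same-numbered cultures correlated from -0.40 to 0.59, and not every pair was above 0.1. These values cannot decide whether the replicate numbers paired the cultures, since each group holds few cultures. In MV4-11 the deviations also include libraries of high mitochondrial share, whose part was not tested. With the replicate number as a block the counts were 2844, 3267 and 49 in Molm-14, 712, 1022 and 11 in MV4-11 and 1447, 2155 and 25 for SKNO-1. Depth limits MSR1, MARCO, CD163, STAB1, OLR1 and MRC1, which had at most 44 reads per library.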
